A study of Mus musculus with 6 samples.

Results

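Translation initiation factor genes were compared in the mouse macrophage line RAW 264.7. All cells had been stimulated with lipopolysaccharide, a bacterial membrane component that activates macrophages. The cells then received extracellular vesicles from tendon stem cells, grown in normoxia (normoxic-EV, 3 libraries) or preconditioned in hypoxia (hypoxic-EV, 3 libraries). Lipopolysaccharide and vesicles were thus common to both groups, cells without vesicles were not analysed here, and the values compare the vesicle treatments only with each other. The labels do not state vesicle dose, timing, the species of the stem cells, or whether the libraries stem from independent cultures. The p-values therefore rest on the spread between libraries, and that spread may be technical. The members were the protein-coding genes whose symbol starts with Eif, without the eIF2 kinases (4 genes starting with Eif2ak), which gave 69 of the 57010 genes in the count table. Rows with such a symbol that were not protein-coding, 12 in number, were left out as well.

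Initiation factors bring the initiator methionyl-tRNA, the small ribosomal subunit and the capped mRNA together, let the subunit scan to a start codon, and then leave so that the large subunit can join. eIF2 carries the initiator tRNA and eIF2B recharges it with GTP. eIF3 is a large multisubunit platform on the small subunit, and eIF4E, eIF4G and eIF4A together recruit the mRNA through its cap. In macrophages, translation is a known point of control of the inflammatory response, through phosphorylation of eIF2 and through mTORC1 and MNK kinases that act on the cap-binding step.

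Of the 69 genes, 48 had enough counts to be tested. The other 21 were 16 Eif1ad copies together with Eif4ebp3 (17 counts over the 6 libraries), Eif4a3l1 (1 count), Eif4a3l2 (3 counts), Eif5a2 (1 count) and Eif4e1b (0 counts). A gene was called at an adjusted p under 0.05 in edgeR's quasi-likelihood test, its p-values adjusted by Benjamini-Hochberg over the 13303 genes tested. Levels are given as CPM, the count scaled to the TMM-adjusted library size, and changes as the log2 ratio of hypoxic-EV over normoxic-EV, also called the log2 fold change, with its standard error (SE). By this rule 28 of the 48 were called, of which 19 were higher in hypoxic-EV (39.6%) and 9 were lower (18.8%). Among all tested genes 44.2% were called, 22.7% higher and 21.5% lower. Among the 7841 tested genes with a mean of at least 16.5 CPM, the lowest mean of a tested initiation factor gene, 28.9% were called higher and 25.1% lower. The 6 libraries separated by group without overlap in CPM for 36 of the 48 (75.0%), against 52.8% of all tested genes. That background includes genes of lower counts, and the share without overlap among the 7841 genes was not computed.

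The changes were small. The median log2 fold change of the 48 genes was 0.10, beside -0.0011 over all tested genes and 0.0097 over those 7841. The largest difference was 1.42-fold, whereas 535 genes in all were called with a change of at least 2-fold. Among called genes the median size of the log2 fold change was 0.25 for initiation factors and 0.36 over all genes. The share of each library's counts on the 69 genes was 1.48%, 1.46% and 1.49% in normoxic-EV and 1.47%, 1.5% and 1.49% in hypoxic-EV, so it overlapped between the groups. Rises and falls were spread over the roles as the plot of fold changes shows. The genes for eIF1 and eIF1A were on the lower side, most called eIF3 genes were on the higher side, and the cap-binding genes had no call.

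**Figure D1:**
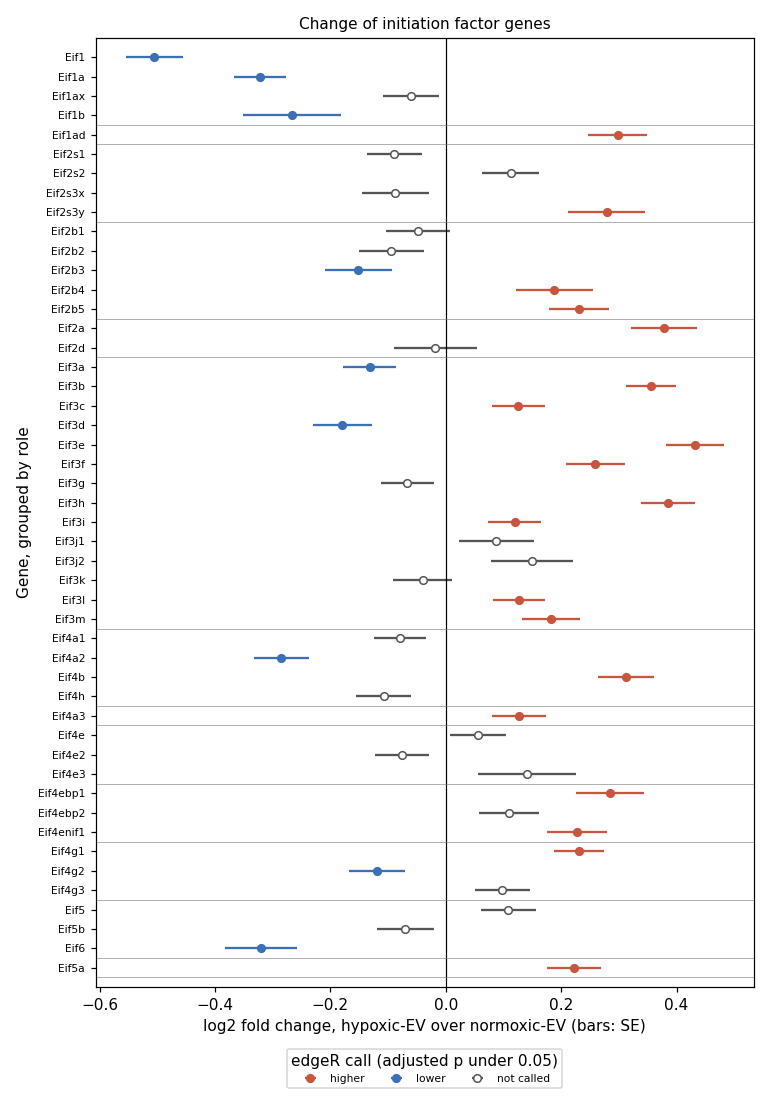
The log2 fold change (hypoxic-EV over normoxic-EV, x axis) of the 48 tested initiation factor genes, grouped by role on the y axis, with bars for the SE; filled red and blue points were called higher and lower by edgeR and open points were not called. Eif1 lies farthest to the left at -0.51 and Eif3e farthest to the right at 0.43.

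Total counts ran from 16751665 to 23422328 per library, so that 3 counts, the limit that a count of 0 allows, corresponded to between 0.128 and 0.179 CPM (counting error only). The common biological coefficient of variation was 0.0489. Libraries of a group differed from each other by more than counting noise, with a chi-square per degree of freedom of 2.72 to 5.84. Mitochondrially encoded genes took 2.17% ± 0.054 of counts in normoxic-EV and 2.99% ± 0.0747 in hypoxic-EV libraries (SD, n = 3). Of 9 macrophage markers 8 reached the tested range, while Mertk had 11 counts over the 6 libraries and was not tested. The 9 summed to 9596 to 9988 CPM in normoxic-EV and 7657 to 8058 CPM in hypoxic-EV, and 2 of them were called higher and 5 lower. Most of that sum was Lyz2, with means of 7946 and 6091 CPM, while Csf1r was called higher (log2 fold change 1.02) and Adgre1 lower (-0.80). Of 10 tendon and stromal markers none reached the tested range and 5, among them Tnmd and Col1a2, were at 0, with sums of 0.897 to 1.81 CPM and 0.766 to 1.36 CPM. Of 8 lymphocyte markers 4 were at 0, with sums of 0.419 to 0.701 CPM and 0.868 to 1.08 CPM. The one tested lymphocyte marker, Cd79a, was called higher at means of 0.304 and 0.789 CPM (edgeR adjusted p = 0.00849). The 9 neutrophil and dendritic cell markers summed to 239 to 273 CPM and 99.2 to 122 CPM, nearly all of it S100a8, with Elane at 0. The part of these shifts in the initiation factor results was not tested. In bulk RNA, fewer cells of a kind and less RNA per cell cannot be told apart.

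eIF1 and eIF1A bind the small subunit, keep it open for scanning and make it discriminate between start codons. Of the 4 genes, 3 were called lower in hypoxic-EV and none higher, and the fourth, Eif1ax, lay below 0 without a call. This count and those of the roles below stand beside 22.7% of all tested genes called higher and 21.5% called lower. None of them was tested against these shares. Eif1 (ENSMUSG00000035530, GRCm39 chr11:100210711-100212922, plus strand), the gene with the highest mean level per length in normoxic-EV, measured 920, 825 and 872 CPM in normoxic-EV and 589, 632 and 622 CPM in hypoxic-EV. Every hypoxic-EV library was below every normoxic-EV library, and Eif1 fell by 29.5% (log2 ratio -0.51 with SE 0.0494, adjusted p = 4.28e-08 in edgeR). Eif1a, one of the eIF1A genes, measured 315, 297 and 314 CPM against 243, 250 and 248 CPM, again without overlap (log2 ratio -0.32 with SE 0.0450, adjusted p = 6.08e-06 in edgeR). Its X-linked counterpart Eif1ax measured 144, 133 and 133 CPM against 130, 132 and 131 CPM. These groups did not overlap either, but the difference of -0.06 was not called (edgeR adjusted p = 0.334).

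The reads of near-identical copies may be split between Eif1a and Eif1ax, since the sources used here do not state how multi-mapping reads were handled. With both counted as 1 gene, an alternative added after the data were seen, the sum fell by 0.24 on the log2 scale (edgeR adjusted p = 0.000202). Eif1b, a paralog of Eif1 with low counts, measured 20.4, 19.7 and 18.2 CPM against 15.1, 16.1 and 17.0 CPM, and fell by 0.27 on the log2 scale (SE 0.0849, adjusted p = 0.0143 in edgeR). The Eif1b call ended without normoxic-EV replicate 1 (adjusted p = 0.0751) or hypoxic-EV replicate 1 (adjusted p = 0.0617).

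Eif1ad encodes a protein with an eIF1A-type domain whose role is distinct from that of eIF1A. It was higher in hypoxic-EV, with 79.4, 82.2 and 85.7 CPM against 105, 102 and 98.1 CPM (log2 ratio 0.30 with SE 0.0511, adjusted p = 6.92e-05 in edgeR). Eif1ad overlaps Banf1 on the other strand, whose count was 96.2% of that of Eif1ad and whose log2 fold change was 0.19. Because it is not given whether counting used strand, reads of the pair cannot be told apart with certainty. None of its 16 further copies had enough counts to be tested.

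eIF2 has an alpha subunit (Eif2s1), whose phosphorylation by stress kinases limits initiation, a beta subunit (Eif2s2) and a gamma subunit that binds GTP and the tRNA (Eif2s3x on X and Eif2s3y on Y). Only Eif2s3y was called among the 4. Eif2s3y (ENSMUSG00000069049) measured 29.6, 31.8 and 31.9 CPM in normoxic-EV and 36.5, 39.4 and 37.3 CPM in hypoxic-EV, so the groups did not overlap. It rose by 0.28 on the log2 scale (SE 0.0663, adjusted p = 0.00172 in edgeR). The more abundant Eif2s3x measured 130, 140 and 147 CPM against 120, 137 and 136 CPM, which overlapped (log2 ratio -0.09, adjusted p = 0.232 in edgeR). The Y-linked copy thus made up 17.0% ± 0.42 of the summed FPKM (the deposited level per gene length and library total) of the pair in normoxic-EV and 20.9% ± 0.866 in hypoxic-EV libraries (SD, n = 3). Summed into 1 gene, which was also added after the data were seen, the pair gave a log2 ratio of -0.013 (edgeR adjusted p = 0.870).

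The alpha subunit gene Eif2s1, with the highest level per length of eIF2, measured 552, 522 and 542 CPM against 482, 533 and 503 CPM. Its groups overlapped, and the log2 ratio of -0.09 (SE 0.0478) was not called (edgeR adjusted p = 0.140). Eif2s2 had a log2 fold change of 0.11 and was not called either (edgeR adjusted p = 0.0679). Both results turned on single libraries. Eif2s1 was called lower without hypoxic-EV replicate 2 (edgeR adjusted p = 0.0287), and Eif2s2 was called higher without normoxic-EV replicate 1 (edgeR adjusted p = 0.0391) or hypoxic-EV replicate 1 (edgeR adjusted p = 0.0429).

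eIF2B is built of a regulatory part (alpha, beta and delta, from Eif2b1, Eif2b2 and Eif2b4) and a catalytic part (gamma and epsilon, from Eif2b3 and Eif2b5). The 5 genes moved in different directions, with 2 called higher, 1 lower and 2 not called. Eif2b5 (ENSMUSG00000003235, GRCm39 chr16:20317567-20328073, plus strand), which encodes the catalytic epsilon subunit, measured 91.5, 85.4 and 89.2 CPM against 99.7, 103 and 109 CPM. All hypoxic-EV libraries were above all normoxic-EV libraries (log2 ratio 0.23 with SE 0.0517, adjusted p = 0.0010 in edgeR). Its catalytic partner Eif2b3 went the other way, with 70.1, 61.4 and 67.1 CPM against 57.5, 60.0 and 61.2 CPM (log2 ratio -0.15 with SE 0.0582, adjusted p = 0.0396 in edgeR). Eif2b4 measured 29.2, 28.6 and 29.9 CPM against 33.8, 31.8 and 34.5 CPM (log2 ratio 0.19 with SE 0.0670, adjusted p = 0.0274 in edgeR). Eif2b2, the eIF2B gene of highest level per length, overlapped between groups, with 111, 109 and 102 CPM against 104, 92.1 and 105 CPM (log2 ratio -0.09 with SE 0.0568, adjusted p = 0.190 in edgeR).

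The eIF2B calls other than that of Eif2b5 were less stable. For Eif2b3 the edgeR adjusted p was 0.212 and 0.119 without normoxic-EV replicates 1 and 3, and 0.128 and 0.0533 without hypoxic-EV replicates 1 and 3. With all libraries the Eif2b3 call ended with no filter (adjusted p = 0.110) or DESeq2's test (0.0589), and that of Eif2b4 with DESeq2's test (0.0657). For Eif2b4 it was 0.0597 and 0.106 without normoxic-EV replicates 1 and 2, and 0.0669 and 0.10 without hypoxic-EV replicates 1 and 3. Eif2b4 also overlaps Snx17 on the other strand, which had 222% of its count and a log2 fold change of 0.10.

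Eif2a and Eif2d encode proteins that can bring an initiator tRNA to the ribosome without eIF2. Eif2a (ENSMUSG00000027810), which is a different gene from the eIF2 alpha subunit gene Eif2s1, measured 92.3, 81.4 and 88.9 CPM in normoxic-EV and 109, 122 and 110 CPM in hypoxic-EV. The groups were apart, and Eif2a was called higher (log2 ratio 0.38 with SE 0.0573, adjusted p = 1.57e-05 in edgeR). Its neighbour Serp1 overlaps it on the other strand, had 487% of its count and moved the other way (log2 fold change -0.54). Eif2d overlapped between the groups and was not called (log2 ratio -0.02, adjusted p = 0.865 in edgeR). Rassf5 overlaps Eif2d on the other strand, with 85.7% of its count and a log2 fold change of 0.55.

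Mammalian eIF3 has an octameric core of subunits a, c, e, f, h, k, l and m, a peripheral module of b, g and i, subunit d attached through e, and the loosely bound subunit j. All 14 genes, among them Eif3j1 and Eif3j2 for subunit j, were tested. Of these, 8 were called higher, 2 were called lower and 4 were not called. The median log2 fold change was 0.13, and 11 of the 14 separated the groups without overlap. These counts stand beside the background shares given above.

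The transcription start windows of the raised eIF3 genes are shown because many mRNAs of the translation machinery begin with a run of pyrimidines, which mTORC1 signalling acts on through Larp1. RefSeq promoter entries (GRCm38.p6) were matched for 5 of the 8 raised genes. Each line gives 30 bases, 15 on either side of the annotated start, read 5′ to 3′ on the gene's strand, with runs of at least 6 C or T in capitals.
Eif3b, chr5:140419290-140419319, plus strand: ctagcggcgcgcggtgacttctgggagtcg
Eif3c, chr7:126566352-126566381, minus strand: ctcacctgctcagagggactcggcagctta
Eif3f, chr7:108934400-108934429, plus strand: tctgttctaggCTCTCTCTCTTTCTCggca
Eif3l, chr15:79075208-79075237, plus strand: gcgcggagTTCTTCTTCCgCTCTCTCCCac
Eif3m, chr2:105017013-105017042, minus strand: TTTTCCggtcggcgtgtttctggatcggag

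The windows of Eif3f, Eif3l and Eif3m held such a run, the longest being 15, 10 and 6 bases, and those of Eif3b and Eif3c did not. The longest runs of Eif3f and Eif3l spanned the annotated start. That of Eif3m was the first 6 bases of its window, upstream of the start and so outside a transcript that begins there. A run was counted anywhere in the window, here and in the counts below. The bases that follow the annotated start were found in a GENCODE vM21 transcript of the same gene for Eif3f, Eif3l and Eif3m. For Eif3b and Eif3c they were not, so the lack of a run in these windows is not read as a result. Both genes are still counted below as entries without a run. Whether the other entries match a transcript is not given here. Of 38 tested initiation factor genes with an entry, 12 had a run (31.6%), against 32.7% of 27025 genes with an entry, so the share was close to that of all genes. The 12 were 9 of 15 genes called higher, 0 of 5 called lower and 3 of 18 not called. The length of the run and of the window were set after the sequences and the calls had been seen, so this split is a description only. The shares with a run among all genes called higher or lower are not given here, so the split has no background. A stricter search tried before it, for a C at the annotated start followed by at least 4 C or T, matched 2 of the 38 (5.26%) and 3.01% of all genes. Over the 300 bases of each entry, searched on both strands, CACGTG was present for 9 of the 38 (23.7%) and 8.09% of all genes, CCGGAAGT for 6 (15.8%) and 4.31%, and TGACGTCA for 0 and 2.03%. The 38 had all passed the count filter, whereas the 27025 include genes that had not. Shares among tested genes only were not computed, so these differences are not read as particular to initiation factor genes. These matches describe letters in a window and show no binding.

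Eif3e (ENSMUSG00000022336, GRCm39 chr15:43113454-43146115, minus strand), the core subunit to which d attaches, rose most of all initiation factor genes. It measured 198, 186 and 202 CPM in normoxic-EV and 255, 280 and 257 CPM in hypoxic-EV (log2 ratio 0.43 with SE 0.050, adjusted p = 4.82e-07 in edgeR). Eif3h (ENSMUSG00000022312, GRCm39 chr15:51649954-51728919, minus strand), another core subunit, measured 251, 232 and 230 CPM against 304, 307 and 320 CPM (log2 ratio 0.39 with SE 0.0474, adjusted p = 1.07e-06 in edgeR). Eif3b (ENSMUSG00000056076, GRCm39 chr5:140405083-140429115, plus strand), the scaffold of the peripheral module, measured 231, 231 and 230 CPM against 288, 297 and 301 CPM (log2 ratio 0.36 with SE 0.0439, adjusted p = 1.09e-06 in edgeR). In each of these 3 genes the lowest hypoxic-EV library stood above the highest normoxic-EV library.

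The other raised eIF3 genes changed less. Eif3f rose by 0.26 (edgeR adjusted p = 0.000277) and Eif3m by 0.18 (edgeR adjusted p = 0.00521) on the log2 scale. Eif3c, the eIF3 gene with the highest level per length, measured 782, 772 and 804 CPM against 825, 870 and 878 CPM, with a log2 ratio of 0.13 (SE 0.0455, adjusted p = 0.0296 in edgeR). Eif3l and Eif3i had log2 fold changes of 0.13 (edgeR adjusted p = 0.0269) and 0.12 (edgeR adjusted p = 0.0423). The last 3 calls depended on single libraries. The Eif3c call ended without normoxic-EV replicate 1 (adjusted p = 0.0629), normoxic-EV replicate 2 (0.144) or hypoxic-EV replicate 3 (0.10). The Eif3l call ended without normoxic-EV replicate 1 (adjusted p = 0.0547), 2 (0.0918) or 3 (0.0599), or hypoxic-EV replicate 3 (0.112). Among fits without 1 library, the Eif3i call held only without hypoxic-EV replicate 2, and its adjusted p was between 0.0536 and 0.133 without any of the other 5 libraries. With all libraries it also ended with DESeq2's size factors (adjusted p = 0.0506), no filter (0.0528) or DESeq2's test (0.0558).

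Against the direction of most, Eif3d and Eif3a were called lower. Eif3d (ENSMUSG00000016554), whose product can bind the cap of some mRNAs, measured 194, 191 and 189 CPM against 169, 157 and 180 CPM, without overlap (log2 ratio -0.18 with SE 0.0512, adjusted p = 0.00703 in edgeR). Eif3a, the largest subunit and a scaffold of the core, had a log2 ratio of -0.13 (SE 0.0462, adjusted p = 0.0252 in edgeR). Its call ended without normoxic-EV replicate 2 (adjusted p = 0.0909), normoxic-EV replicate 3 (0.0890) or hypoxic-EV replicate 3 (0.134), and with no filter on low counts (0.0904). Eif3g, Eif3k, Eif3j1 and Eif3j2 had log2 fold changes from -0.07 to 0.15 and were not called. Eif3j2 alone among them became a call when 1 library was left out, at edgeR adjusted p = 0.0393 without normoxic-EV replicate 1 and 0.0460 without hypoxic-EV replicate 3. How any reads shared by Eif3j1 and Eif3j2 were assigned is not given, and this pair was not summed. Within the octameric core, e, h, f, m, c and l were thus called higher, a was called lower and k was not called.

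**Figure D2:**
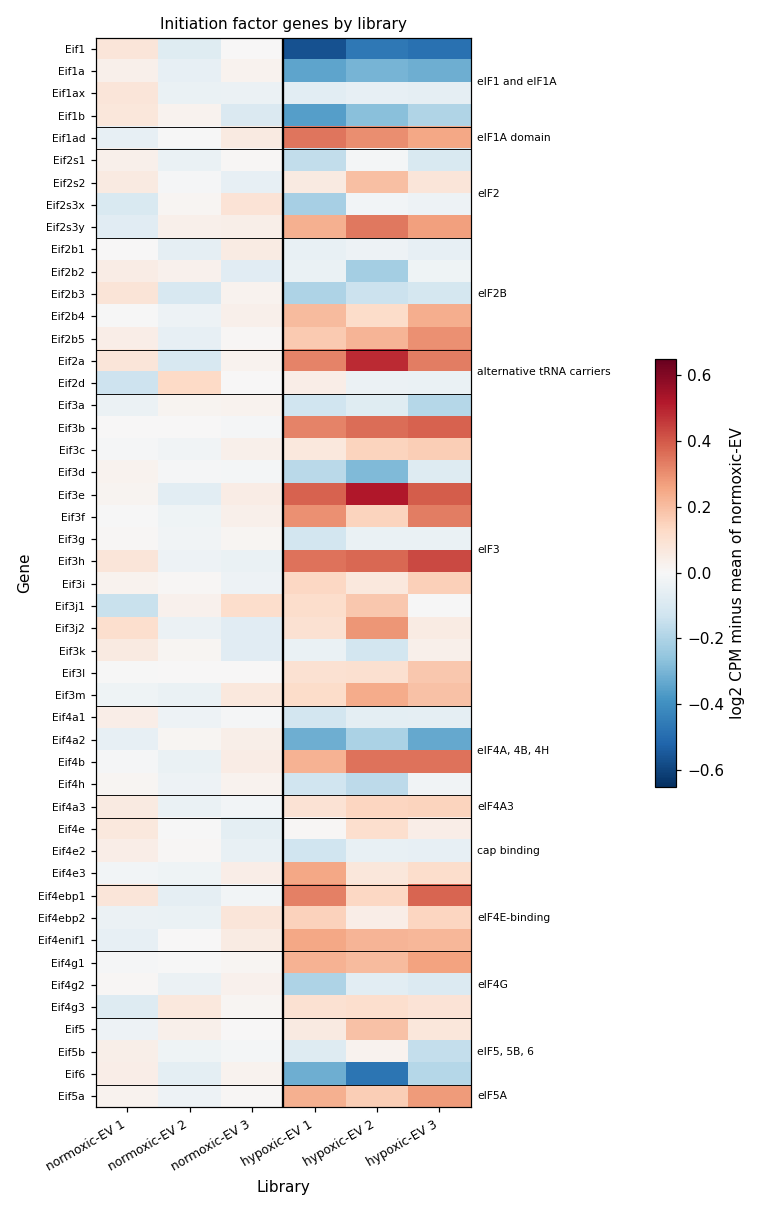
Colour gives log2 CPM in each library (columns) minus the normoxic-EV mean for each of the 48 tested genes (rows, grouped by role), red above and blue below. Eif3e, Eif3h and Eif3b are red in all 3 hypoxic-EV columns, and Eif1 and Eif1a are blue in all 3.

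eIF4A unwinds the mRNA leader, and eIF4B and eIF4H stimulate it. Eif4b (ENSMUSG00000058655, GRCm39 chr15:101982208-102005608, plus strand) measured 575, 561 and 599 CPM in normoxic-EV and 676, 740 and 738 CPM in hypoxic-EV. It rose by 0.31 on the log2 scale (SE 0.0484, adjusted p = 2.16e-05 in edgeR). Eif4a2 (ENSMUSG00000022884) measured 404, 423 and 430 CPM against 336, 363 and 333 CPM and fell by 0.28 (SE 0.0478, adjusted p = 5.39e-05 in edgeR), and both genes separated the groups. Rfc4 overlaps Eif4a2 on the other strand with 15% of its count and a log2 fold change of 0.32.

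The main helicase gene Eif4a1 measured 1371, 1301 and 1323 CPM against 1225, 1274 and 1280 CPM. The groups did not overlap, but the log2 ratio of -0.08 (SE 0.0454) was not called (edgeR adjusted p = 0.164). Eif4a2 therefore made up 20.4% ± 0.917 of the summed FPKM of the pair in normoxic-EV and 18.1% ± 0.688 in hypoxic-EV libraries (SD, n = 3). The processed pseudogene Eif4a-ps4, with 17.8% of the count of Eif4a1, was called lower (log2 ratio -0.13, adjusted p = 0.0326 in edgeR). Its sum with Eif4a1 was not called (log2 ratio -0.09, adjusted p = 0.123 in edgeR). Eif4h had a log2 ratio of -0.11 (edgeR adjusted p = 0.0753) and became a call without hypoxic-EV replicate 3 (adjusted p = 0.0262). Eif4a3, whose helicase belongs to the exon junction complex rather than to initiation, measured 180, 167 and 171 CPM against 184, 190 and 191 CPM (log2 ratio 0.13 with SE 0.0464, adjusted p = 0.0319 in edgeR). The Eif4a3 call ended without normoxic-EV replicate 2 (adjusted p = 0.172), normoxic-EV replicate 3 (0.0872) or hypoxic-EV replicate 3 (0.0840).

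eIF4E binds the mRNA cap, eIF4E2 is a cap-binding homolog linked to repression, and the 4E-BPs hold eIF4E away from eIF4G until mTORC1 phosphorylates them. None of the 3 tested cap-binding genes was called by edgeR, and none had an unadjusted p under 0.05. Eif4e measured 238, 227 and 218 CPM against 229, 246 and 235 CPM, so the groups overlapped (log2 fold change 0.06, SE 0.0482, 95% interval -0.039 to 0.15, edgeR adjusted p = 0.374). Eif4e2 and Eif4e3 had log2 fold changes of -0.08 (edgeR adjusted p = 0.205) and 0.14 (edgeR adjusted p = 0.194).

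Among the genes whose products bind eIF4E, 2 of 3 tested were called, both higher. Eif4ebp1 (ENSMUSG00000031490, GRCm39 chr8:27750357-27766702, plus strand) measured 104, 95.1 and 97.6 CPM against 124, 109 and 128 CPM. Its lowest hypoxic-EV library, replicate 2, lay just above its highest normoxic-EV library (log2 ratio 0.28 with SE 0.0593, adjusted p = 0.000521 in edgeR). Eif4enif1, which encodes the nuclear import carrier of eIF4E, measured 64.9, 67.3 and 69.7 CPM against 80.0, 78.4 and 78.1 CPM (log2 ratio 0.23 with SE 0.0516, adjusted p = 0.00116 in edgeR). Drg1 overlaps Eif4enif1 on the other strand, with 244% of its count and a log2 fold change of -0.07. Eif4ebp2 had a log2 fold change of 0.11 and no call (edgeR adjusted p = 0.0970), but was called without normoxic-EV replicate 3 (adjusted p = 0.0405) or hypoxic-EV replicate 2 (adjusted p = 0.0255). The FPKM of Eif4ebp1 and Eif4ebp2 summed to 162% ± 7.10 of that of Eif4e in normoxic-EV and 185% ± 19.4 in hypoxic-EV libraries (SD, n = 3), and these ranges overlapped.

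eIF4G1 and eIF4G3 bridge eIF4E, eIF4A and eIF3, whereas eIF4G2 (DAP5) lacks the eIF4E-binding part and works in cap-independent or eIF4E-independent initiation. Eif4g1 and Eif4g2 were called in opposite directions. Eif4g1 (ENSMUSG00000045983, GRCm39 chr16:20487063-20511634, plus strand) measured 686, 689 and 695 CPM in normoxic-EV and 806, 797 and 825 CPM in hypoxic-EV (log2 ratio 0.23 with SE 0.0436, adjusted p = 0.000194 in edgeR). Eif4g2 measured 2063, 2001 and 2090 CPM against 1783, 1958 and 1926 CPM (log2 ratio -0.12 with SE 0.0480, adjusted p = 0.0499 in edgeR). Both separated the groups, Eif4g1 widely and Eif4g2 narrowly. Among fits without 1 library, the Eif4g2 call held only without hypoxic-EV replicate 2, and its adjusted p was between 0.0705 and 0.188 without any of the other 5. With no filter on low counts it was 0.152. On the per-length scale Eif4g1 stood at 46.8% ± 0.946 of Eif4g2 in normoxic-EV and 59.8% ± 3.16 in hypoxic-EV libraries (SD, n = 3). Eif4g3 was not called (log2 ratio 0.10, adjusted p = 0.103 in edgeR), and Eif4g1 made up 82.8% ± 0.717 of the FPKM of Eif4g1 and Eif4g3 in normoxic-EV and 84.1% ± 0.335 in hypoxic-EV.

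eIF5 triggers GTP hydrolysis by eIF2, eIF5B joins the subunits, and eIF6 keeps free large subunits from joining too early. Eif6 (ENSMUSG00000027613, GRCm39 chr2:155661752-155668845, minus strand) was the one called gene of the 3. It measured 107, 99.1 and 105 CPM against 83.3, 74.6 and 91.1 CPM, without overlap, and fell by 19.9% (log2 ratio -0.32 with SE 0.0618, adjusted p = 0.000243 in edgeR). Eif5 measured 529, 555 and 542 CPM against 565, 618 and 569 CPM. Its groups did not overlap, but it was not called (log2 ratio 0.11 with SE 0.0475, adjusted p = 0.0715 in edgeR). Without hypoxic-EV replicate 1 Eif5 was called higher (adjusted p = 0.0443), and without hypoxic-EV replicate 2 Eif5b, with a log2 fold change of -0.07 over all libraries, was called lower (adjusted p = 0.0389). Rev1 overlaps Eif5b on the other strand with 10.4% of its count.

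eIF1 and eIF5 are known to oppose each other in start codon choice. The FPKM of Eif1 was 524% ± 41.2 of that of Eif5 in normoxic-EV and 342% ± 11.5 in hypoxic-EV libraries (SD, n = 3). The FPKM of Eif1a was 74.0% ± 0.720 of Eif1a and Eif1ax summed, against 70.4% ± 0.211. In all, 7 such ratios were formed after the data were seen, and 6 of them, all but that of the 4E-BPs to Eif4e, separated the groups. They restate the changes of the genes in them and were not tested.

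Eif5a (ENSMUSG00000078812, GRCm39 chr11:69807540-69812784, minus strand) encodes the hypusine-containing factor that relieves stalled ribosomes during elongation and termination. It measured 651, 626 and 644 CPM against 751, 714 and 775 CPM, with all hypoxic-EV libraries above the normoxic-EV ones (log2 ratio 0.22 with SE 0.0462, adjusted p = 0.000519 in edgeR).

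**Figure D3:**
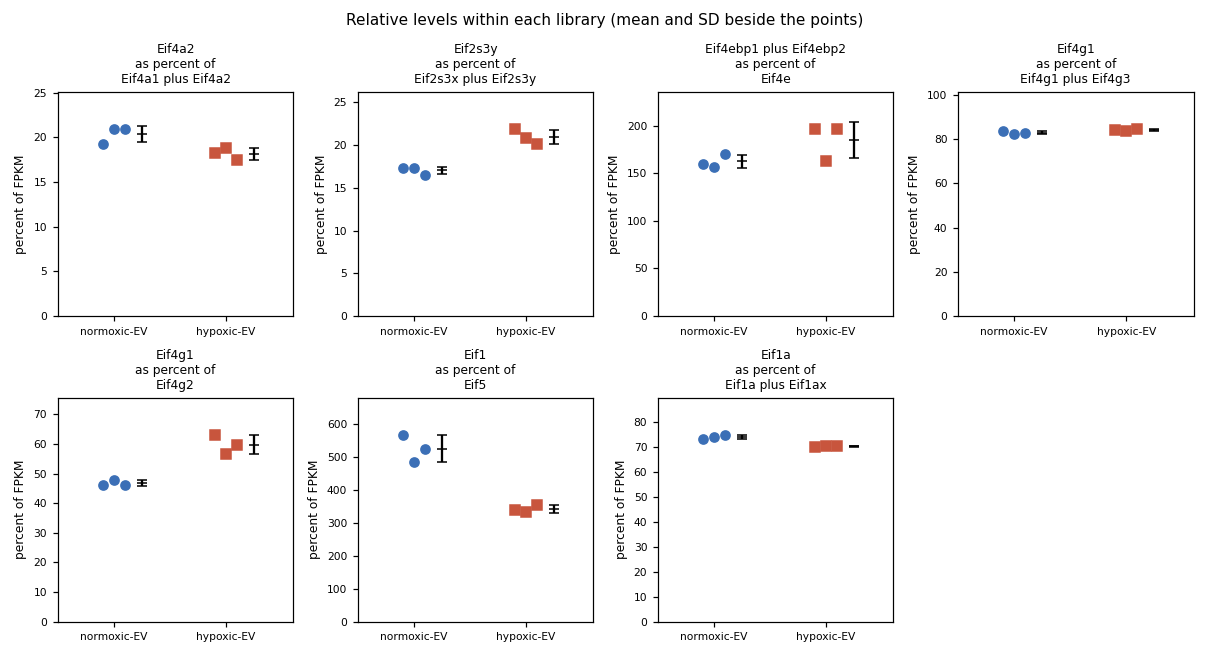
FPKM ratios within each library, in percent on the y axes, for normoxic-EV (blue circles) and hypoxic-EV (red squares) with the mean and SD of 3 libraries beside the points. The ratio of Eif1 to Eif5 is 342% in hypoxic-EV and 524% in normoxic-EV, and the ratio of the 4E-BP genes to Eif4e overlaps between groups.

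By mean FPKM over all 6 libraries, Eif1 at 354, Eif4a1 at 299, Eif5a at 291, Eif3c at 234 and Eif4g2 at 194 stood highest, and the order ended with Eif2s3y at 8.26, Eif4e3 at 6.57 and Eif2d at 4.65. The order of the first 3 differed by group. In normoxic-EV the means were 415 FPKM for Eif1, 307 for Eif4a1 and 269 for Eif5a, and in hypoxic-EV they were 314 for Eif5a, 292 for Eif1 and 290 for Eif4a1. Every normoxic-EV library had Eif4a1 (301 to 315 FPKM) above Eif5a (264 to 273 FPKM), and every hypoxic-EV library had Eif5a (298 to 324 FPKM) above Eif4a1 (286 to 293 FPKM). The range over the tested genes was 76.2-fold. Within eIF3, levels ranged 21.3-fold, from 11 FPKM for Eif3j1 to 234 FPKM for Eif3c. Differences between genes were thus far larger than those between the vesicle groups, as the plot of FPKM shows. FPKM divides by 1 fixed length for each gene, so these orders depend on the authors' gene lengths. The order of Eif4a1 and Eif5a also depends on reads that Eif4a1 may share with Eif4a-ps4, which had 17.8% of its count. How such reads were assigned is not given, and the FPKM of Eif4a1 and Eif4a-ps4 together was not computed, so the change of order is uncertain.

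**Figure D4:**
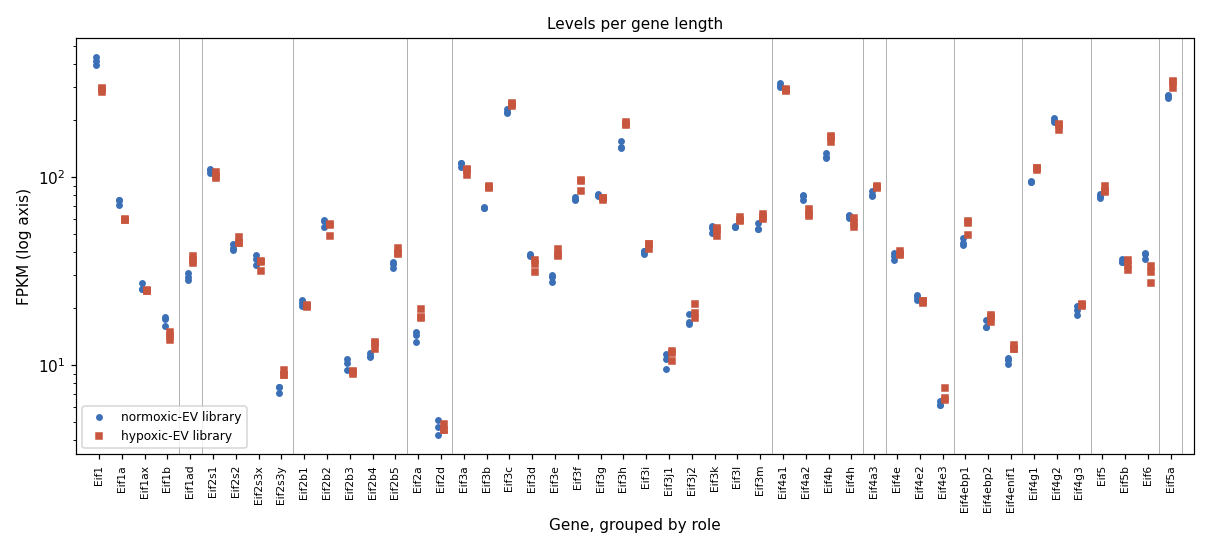
FPKM as deposited (log axis) of the 48 tested genes, grouped by role, with each normoxic-EV library as a blue circle and each hypoxic-EV library as a red square. The mean levels run from 4.65 for Eif2d to 354 for Eif1, and the 2 groups lie close together for each gene.

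In the authors' deposited table of 462 changed genes no initiation factor gene was listed. The smallest log2 fold change in the authors' deposited table was 1.0 in size, beyond that of every tested initiation factor gene.

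Among 12 genes for eIF2 kinases, their regulators, the eIF2 phosphatase and the integrated stress response, 1 was called higher (8.33%) and 4 lower (33.3%). The median log2 fold change was -0.02. Of all tested genes 22.7% were called higher and 21.5% lower, and of those with at least 16.5 CPM 28.9% and 25.1%. The lists given from here on were not tested against these shares. Ppp1r15a (GADD34), which directs a phosphatase to eIF2 alpha, measured 448, 447 and 407 CPM in normoxic-EV and 186, 162 and 207 CPM in hypoxic-EV (log2 ratio -1.23 with SE 0.0656, adjusted p = 3.91e-12 in edgeR). Ddit3 (CHOP), a transcription factor of the same response, measured 111, 97.5 and 89.4 CPM against 47.1, 46.4 and 46.7 CPM (log2 ratio -1.08 with SE 0.0661, adjusted p = 2.95e-11 in edgeR). Both were lower in every hypoxic-EV library than in any normoxic-EV library. Atf4, the central transcription factor of the response, had a log2 fold change of -0.07 and was not called (edgeR adjusted p = 0.232). Impact, an inhibitor of the kinase GCN2, fell by 0.45 (edgeR adjusted p = 5.46e-07), and Dnajc3, an inhibitor of eIF2 kinases, fell by 0.19 (edgeR adjusted p = 0.00733) on the log2 scale. Eif2ak4, which encodes GCN2, had a log2 ratio of 0.21 (edgeR adjusted p = 0.0312). That call ended without normoxic-EV replicate 1 (adjusted p = 0.153), hypoxic-EV replicate 1 (0.104) or hypoxic-EV replicate 3 (0.0630). The phosphorylation of eIF2 was not measured.

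Of 17 genes of mTORC1 and MNK signalling to initiation, 8 were called higher (47.1%) and 2 lower (11.8%). The shares over all tested genes were 22.7% and 21.5%. The median log2 fold change of the list was 0.03. Pdcd4, an inhibitor of eIF4A, measured 5.56, 5.61 and 5.69 CPM against 11.1, 12 and 9.98 CPM (log2 ratio 0.97 with SE 0.118, adjusted p = 9.36e-07 in edgeR). Deptor, an mTOR inhibitor, measured 3.23, 5.08 and 4.40 CPM against 8.38, 7.66 and 6.93 CPM (log2 ratio 0.84 with SE 0.153, adjusted p = 0.000131 in edgeR). The largest rises were thus in low-count genes for inhibitors, but most genes called higher were others. Mtor, Rptor, Rps6kb1, Rps6ka3 and Larp1 were called higher with log2 fold changes of 0.15 to 0.21. Rps6ka1, a ribosomal S6 kinase of the RSK family, rose by 0.28 on the log2 scale (edgeR adjusted p = 0.00128). Tsc1, of the complex that restrains mTORC1, fell by 0.34 (edgeR adjusted p = 0.000201). Tbc1d7, the other gene called lower, fell by 0.36 (edgeR adjusted p = 0.00355). Without normoxic-EV replicate 2 the number called higher was 5.

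Of 19 initiation partners with other names, 5 were called higher (26.3%) and 3 lower (15.8%), with a median of 0.06. The share called higher was close to the 22.7% of all tested genes, of which 21.5% were called lower. Denr, whose product with MCTS1 recycles small subunits and supports reinitiation, measured 281, 265 and 259 CPM against 163, 176 and 175 CPM (log2 ratio -0.64 with SE 0.0488, adjusted p = 9.37e-10 in edgeR). Pabpc1, the poly(A)-binding protein that contacts eIF4G, measured 2224, 2249 and 2360 CPM against 2757, 3084 and 2881 CPM (log2 ratio 0.35 with SE 0.0499, adjusted p = 7.05e-06 in edgeR). Bzw2, an eIF5-mimic protein, rose by 0.38 (edgeR adjusted p = 1.45e-06), and Paip2b, an inhibitor of the poly(A)-binding protein, fell by 0.32 (edgeR adjusted p = 5.53e-05) on the log2 scale. The number of partners called higher was 3 without normoxic-EV replicate 1, normoxic-EV replicate 2 or hypoxic-EV replicate 2.

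Among 14 elongation, termination and hypusine genes, 6 were called higher (42.9%) and 1, the ribosome rescue factor gene Hbs1l, lower (7.14%). Their median was 0.12, and the shares over all tested genes were 22.7% and 21.5%. Eef2, the translocation factor, measured 2485, 2476 and 2578 CPM against 3486, 3148 and 3557 CPM (log2 ratio 0.43 with SE 0.0507, adjusted p = 5.21e-07 in edgeR). Eef1a1, which delivers aminoacyl-tRNA, rose by 0.36 (edgeR adjusted p = 4.50e-06), its exchange factor subunit Eef1b2 by 0.24 (edgeR adjusted p = 0.000337) and the release factor gene Gspt1 by 0.19 (edgeR adjusted p = 0.00368). Without normoxic-EV replicate 1 no gene of this list was called lower, and without normoxic-EV replicate 2 the number was 2. Of 9 mitochondrial translation factor genes 1 (11.1%), Gfm1, was called higher (log2 ratio 0.17, adjusted p = 0.00653 in edgeR) and none lower. The Gfm1 call ended without normoxic-EV replicate 2 (adjusted p = 0.0638), and without hypoxic-EV replicate 2 the number called higher was 2.

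**Figure D5:**
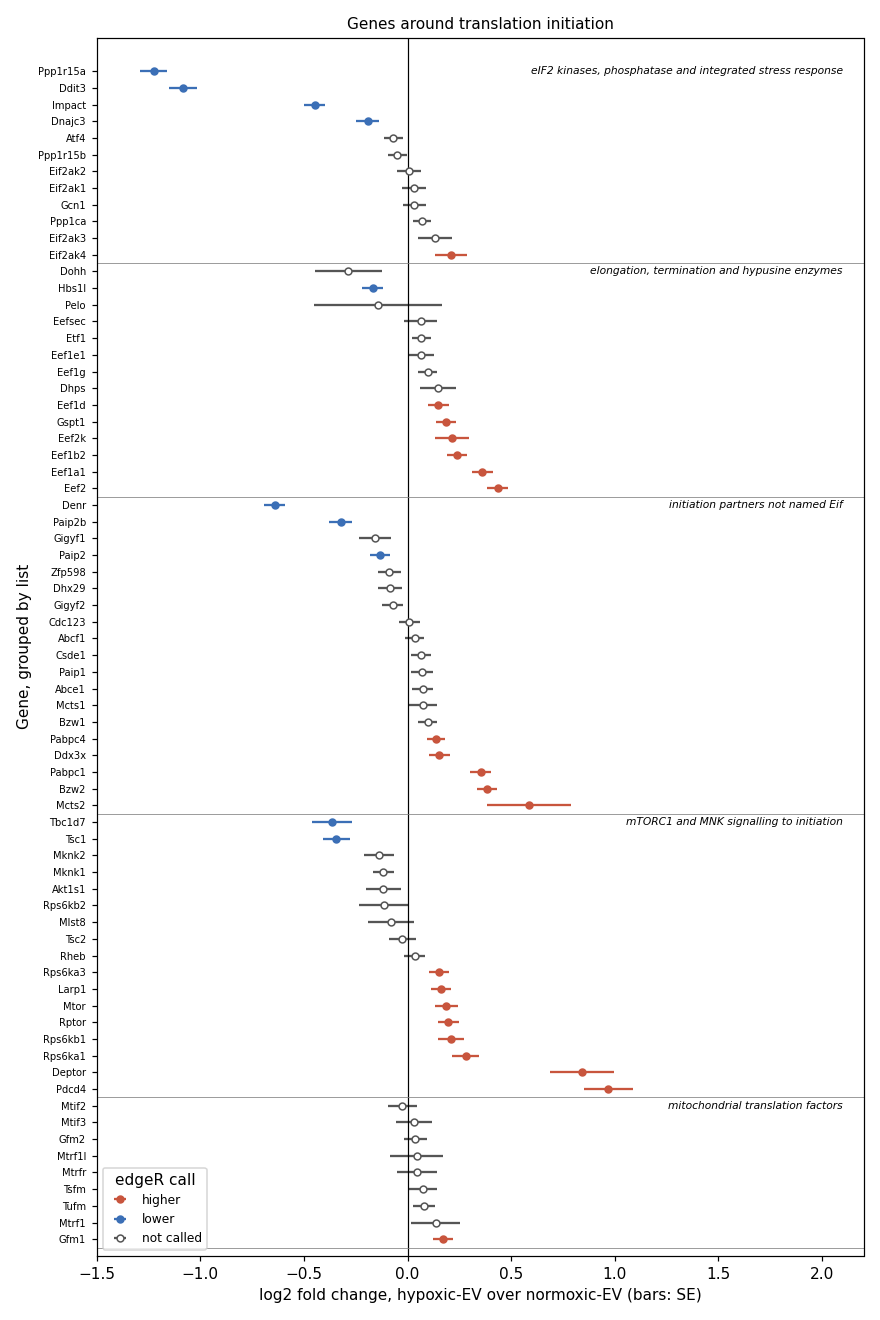
The log2 fold change (hypoxic-EV over normoxic-EV, x axis, bars for the SE) of genes around translation initiation, by list on the y axis, with red and blue points called higher and lower by edgeR and open points not called. Ppp1r15a and Ddit3 lie at -1.23 and -1.08, and most of the other genes lie near 0.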

How the data were processed

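Poly(A) RNA of 6 samples was sequenced in pairs on an Illumina HiSeq instrument, per the labels' protocols. HISAT2, featureCounts and DESeq2 are the tools, and GRCm39 the build, listed by the submitters' processing notes. Versions, annotation, strand setting and multi-mapping policy: not given in the sources used here. Deposited by the authors were raw counts for each gene and FPKM values, and a table of their own comparison with log2 fold changes and adjusted p-values. Groups came from the treatment in the labels.

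The counts were tested with edgeR 4.0.16 (R 4.3.3): genes kept by filterByExpr (minimum count 10, minimum total count 15), TMM scaling, two-sided quasi-likelihood F-test, Benjamini-Hochberg adjustment over 13303 genes. The SE is the log2 fold change divided by the square root of F, and 95% intervals use it. The fits were tested on simulated counts. DESeq2 1.42.0, limma-voom (limma 3.58.1), other scalings and filters, a replicate block and leaving out each library were alternatives.

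The members, roles and lists were chosen with earlier results of these data known. Within a role, up to 3 called genes of largest change and the gene of highest FPKM were given in full, and from each list up to 4 called genes of lowest p. Eif2ak4, Atf4, Hbs1l and the further called genes of the mTORC1 and MNK list were named after their values were seen. The ratios, summed copies, the 16.5 CPM background, overlapping genes (gene spans, at least 5% of the count) and promoter searches were added after seeing the data.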

Additional observations from a re-analysis of the deposited data

How the results depend on the processing

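Over 13 alternatives, 19 of the 28 called initiation factor genes kept their call in every one (14 higher and 5 lower), 9 lost it in at least 1, 7 uncalled genes were called in at least 1, and no called gene reversed. The numbers called higher and lower were 18 and 9 with DESeq2's size factors, 18 and 6 with no filter (58 genes tested), 17 and 8 with DESeq2, and 19 and 9 with library totals, a filter of 1 CPM or limma-voom. Leaving out 1 library gave 14 to 20 higher and 6 to 11 lower. The median log2 fold change was 0.131 with no filter, where low-count genes enter, and 0.070 to 0.106 without 1 library. With the replicate block, 15 were called higher and 6 lower, and Eif3c, Eif3i, Eif3l, Eif4a3, Eif2b3, Eif3a and Eif4g2 lost their call. Deviations of same-numbered libraries did not move together (r = -0.0156, -0.0177 and -0.0175 over genes), and none of the 6 libraries correlated best with its own number. No shared effect of the number was thus seen. Such correlations cannot show whether same-numbered samples were handled together.

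For the lists, DESeq2 called 0 eIF2 kinase and stress response genes higher (Eif2ak4, adjusted p = 0.0721; the cause was not tested). Leaving out 1 library gave 0 to 1 higher there, 0 to 2 lower among elongation and termination genes, 3 to 6 higher among partners, 5 to 8 higher for mTORC1 and MNK, and 0 to 2 higher among mitochondrial factors. With 3 libraries a group and a coefficient of variation of 0.0489, Eif3i and Eif4g2 were called close to the threshold (edgeR adjusted p = 0.0423 and 0.0499). Their log2 fold changes were 0.12 and -0.12. The size needed for a call differed by gene. Eif3j2 at 0.15 (SE 0.0711) and Eif4e3 at 0.14 (SE 0.0856) were not called. No limit of detection was computed.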
